A study of Mus musculus with 16 samples.

Results

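Oligodendrocytes of the mouse spinal cord fell into a pair of clusters in the authors' single-cell data, Cluster 8 and Cluster 4, and the levels of all genes were compared here between them within the same mouse. Cells were taken by the deposited cluster name, "8 Oligo" or "4 Oligo". Cluster 8 held 892 and Cluster 4 held 1768 of the 18203 cells, which the authors had divided into 17 clusters. Of the 16 mice, 14 had 10 or more cells in both clusters and were compared. They contributed 885 cells of Cluster 8 and 1739 cells of Cluster 4, together 2624 of the 2660 oligodendrocytes.

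The study asked what the loss of Ryk, a receptor for Wnt proteins, from astrocytes does to the spinal cord after an injury. Tissue around a cut of the cervical dorsal columns was dissociated in the presence of the transcription blocker actinomycin D, and each mouse gave 1 droplet-based 3′ library. In these libraries, unique molecular identifiers (UMIs) count captured RNA molecules. Knockout mice (genotype Rykfl/fl,GFAPcreERT2, cKO below) carried floxed Ryk and control mice (genotype Ryk+/+,GFAPcreERT2, WT below) carried intact Ryk. Both genotypes carried the tamoxifen-inducible Cre and received tamoxifen. Mice were 8 to 10 weeks old and were studied without an injury or at 1 d, 7 d or 14 d after it, with 2 mice for each of the 8 conditions. Sham is the word used for the uninjured group in the sample labels, although the paper speaks of uninjured animals. The Cre is driven by the promoter of GFAP, an astrocyte gene, so the knockout was aimed at astrocytes, and whether any oligodendrocyte lost Ryk was not tested. The deleted exon of Ryk is not known from the labels, and 3′ tags of Ryk therefore check no genotype.

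Oligodendrocytes wrap axons of the central nervous system in myelin, a stack of membrane rich in cholesterol and galactolipids, and they supply axons with metabolites. They arise from precursor cells that persist in the adult cord, pass through a short newly formed stage and then remain as mature cells. Mature oligodendrocytes of the mouse are known to fall into transcriptional types, of which one is marked by the secreted protease gene Klk6 and common in the white matter of the spinal cord, and another by Ptgds, the gene of prostaglandin D synthase.

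The 14 mice comprised 3 uninjured mice (2 WT, 1 cKO), 3 mice at 1 d (1 WT, 2 cKO), and 4 mice each at 7 d and at 14 d (2 of each genotype). Per mouse, Cluster 8 had 29 to 130 cells (median 60.5) and 44709 to 473653 UMIs, and Cluster 4 had 57 to 228 cells (median 115) and 63439 to 790355 UMIs. The median UMIs per cell ran from 606 to 5114 in Cluster 8 and from 485.5 to 2464 in Cluster 4. Cells of Cluster 8 were deeper in 7 of the 14 mice, had more detected genes in 6, and had a higher mitochondrial percent in 5. The direction of depth went with the animal number, since Cluster 8 was deeper in 5 of 5 mice numbered below 10000 and in 2 of 9 mice numbered 10000 and above. The mice left out were WT 1 d replicate 2, with 1 cell in all, and cKO uninjured replicate 1, with 7 cells of Cluster 8.

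Several libraries stood apart before any gene was compared. Cell barcodes that also occurred in another library were found in 432 cells (166 barcodes), mostly among 4 libraries, WT and cKO replicate 1 at 1 d and at 7 d. Of these cells, 28 lay in Cluster 8 and 11 in Cluster 4. In 6 mice, 5 of them compared here, cell names disagreed with the sample title about the condition, whereas the deposited cell table gave the condition of the title in every mouse. Of the 14 mice, 5 had animal numbers below 10000 (the same 4 libraries and WT uninjured replicate 1), and 9 had numbers of 10000 and above. In both uninjured replicate 2 mice, 14.6% to 19.1% of the UMIs of either cluster fell on the single gene model Gm42418, against 0.156% to 6.07% in the others. Results were therefore repeated without the shared barcodes, without those 4 libraries and within each series of animal numbers.

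Both clusters carried the RNA of mature oligodendrocytes. The 10 markers of that cell type summed to 57147 ± 7655 CPM (a gene's UMIs scaled to the same total in every mouse and cluster; mean ± SD, n = 14 mice) in Cluster 8 and to 40073 ± 7002 in Cluster 4. Markers of oligodendrocyte precursors summed to only 134 ± 63.9 and 239.7 ± 114 CPM. The label of mature oligodendrocytes therefore fitted the markers of both clusters.

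The clusters differed in few genes, and Cluster 8 stood out by Klk6, Hopx and S100b, Cluster 4 by Ptgds, Opalin and Il33. Differences are given as log2(CPM + 50) in Cluster 8 minus Cluster 4 within the mouse, averaged over 14 mice; the 50 CPM added to both damps the ratios of weak genes. Of 31037 genes with a UMI, 4096 were described, those with 20 or more UMIs and a mean of 50 CPM in either cluster. A gene was counted when its mean difference reached 1 and its sign was the same in all 14 mice. This held for 46 genes higher in Cluster 8 (1.12%) and 107 genes higher in Cluster 4 (2.61%). These counts depend on the CPM added, with 72 and 187 genes at 10 CPM and 14 and 22 at 200 CPM. With cells thinned to 1000 UMIs they were 29 and 53. The median difference of all 4096 genes was 0.01, and 3186 of them (77.8%) lay within 0.5 of 0. Just inside the limit of 1 lay St6gal1 (-1.001), Ermn (1.005) and Dscaml1 (-1.02), and just outside it Abhd17a (0.99), Zfp536 (-0.98) and Gpx4 (0.98). Because the authors formed the clusters from these same genes, the difference between them is a description and has no test.

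Klk6, a secreted serine protease of the kallikrein family that can cleave myelin proteins, led the genes higher in Cluster 8. Its level ran from 433 to 4496 CPM in Cluster 8 (median 1978) and from 0 to 599 CPM in Cluster 4 (median 109). The ranges overlapped across mice, since Cluster 4 of WT 1 d replicate 1 exceeded Cluster 8 of 3 other mice, yet within each of the 14 mice Cluster 8 was higher. The difference was 3.21 ± 0.69 (SD). The gene lies on chromosome 7 from 43824499 to 43832030 (mm10). Hopx, a small homeodomain protein that does not bind DNA, ran from 489 to 1685 CPM in Cluster 8 (median 872) and from 10.6 to 211 CPM in Cluster 4 (median 48.9). The clusters did not overlap in Hopx, and its difference was 3.10 ± 0.49.

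Small calcium- and lipid-binding proteins followed. S100b, a calcium-binding protein also made by astrocytes, ran from 869 to 7172 CPM in Cluster 8 (median 2481) and from 158 to 1261 CPM in Cluster 4 (median 399), with overlap and a difference of 2.37 ± 0.57. In Anxa5, an annexin that binds phosphatidylserine, 155 to 634 CPM in Cluster 8 (median 455) stood against 24.7 to 76.4 CPM in Cluster 4 (median 43.5), a difference of 2.23 ± 0.54. Its clusters were apart in all mice. Apod, a carrier of small lipids, was the most abundant gene of the group, with 1069.6 to 13152 CPM in Cluster 8 (median 6068) and 588 to 5929.9 CPM in Cluster 4 (median 1016), and its difference was 1.94 ± 0.69. Its ranges overlapped.

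The other leaders of Cluster 8 were of several kinds. Tubb2b, a beta tubulin, averaged 276 ± 139.7 CPM in Cluster 8 and 24.6 ± 27.2 CPM in Cluster 4. Tppp3, of a family that promotes tubulin polymerization, averaged 663 ± 207 against 164 ± 92.1 CPM, and Tmsb4x, which binds actin monomers, 6390.1 ± 2433 against 2065 ± 759.7 CPM. Both clusters overlapped in these 3 genes. Mgst3, a membrane-bound glutathione transferase, averaged 329.7 ± 98.6 against 38.7 ± 30.2 CPM and did not overlap. Selenop, a carrier of selenium, averaged 1326 ± 527 against 382 ± 195 CPM. Cdkn1c, an inhibitor of cyclin-dependent kinases, averaged 201 ± 90.4 against 8.30 ± 4.98 CPM without overlap, and Uchl1, a deubiquitinating enzyme of neurons and glia, 322 ± 114 against 57.8 ± 56.0 CPM with overlap.

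Ptgds had the largest difference of all genes counted, in favour of Cluster 4. It encodes the enzyme that makes prostaglandin D, a secreted protein that also binds small lipids. Its level ran from 2191 to 19483 CPM in Cluster 4 (median 7173) and from 64.8 to 944 CPM in Cluster 8 (median 349.9). The clusters did not overlap, and the difference was -4.36 ± 0.55. The gene lies on chromosome 2 from 25466709 to 25470046. Opalin, a membrane protein of the paranodal loops of myelin, ran from 293 to 865 CPM in Cluster 4 (median 566) and from 0 to 145 CPM in Cluster 8 (median 31.8), again without overlap (-2.74 ± 0.55). In Il33, a nuclear cytokine that damaged oligodendrocytes release, 140.1 to 883 CPM in Cluster 4 (median 621) faced 0 to 157 CPM in Cluster 8 (median 51.7), a difference of -2.47 ± 0.69. The lowest Cluster 4 value, in cKO uninjured replicate 2, overlapped the range of Cluster 8.

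The remaining leaders of Cluster 4 were of several kinds. Kirrel3, an adhesion molecule of the immunoglobulin family, averaged 1027 ± 1015 CPM in Cluster 4 and 33.0 ± 21.7 CPM in Cluster 8, with a difference of -3.24 ± 1.14. Grm7, a metabotropic glutamate receptor, averaged 536 ± 242 against 28.6 ± 27.2 CPM. Erbb4, a receptor of neuregulins, averaged 967 ± 418 against 202 ± 150.1 CPM. Kirrel3 and Grm7 did not overlap between the clusters, and Erbb4 did. Srgap1, which acts downstream of the guidance receptor Robo, and Nav3, a cytoskeletal navigator protein, had differences of -1.82 ± 0.63 and -2.16 ± 0.61. For Ano4, of the anoctamin family of membrane proteins, the difference was -2.35 ± 0.70. Palm2, of the paralemmin family, and Spock1, a secreted proteoglycan, differed by -2.33 ± 0.85 and -1.96 ± 0.77. The long non-coding RNA C030029H02Rik averaged 264 ± 120.0 CPM in Cluster 4 and 10.9 ± 11.1 CPM in Cluster 8.

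**Figure D1:**
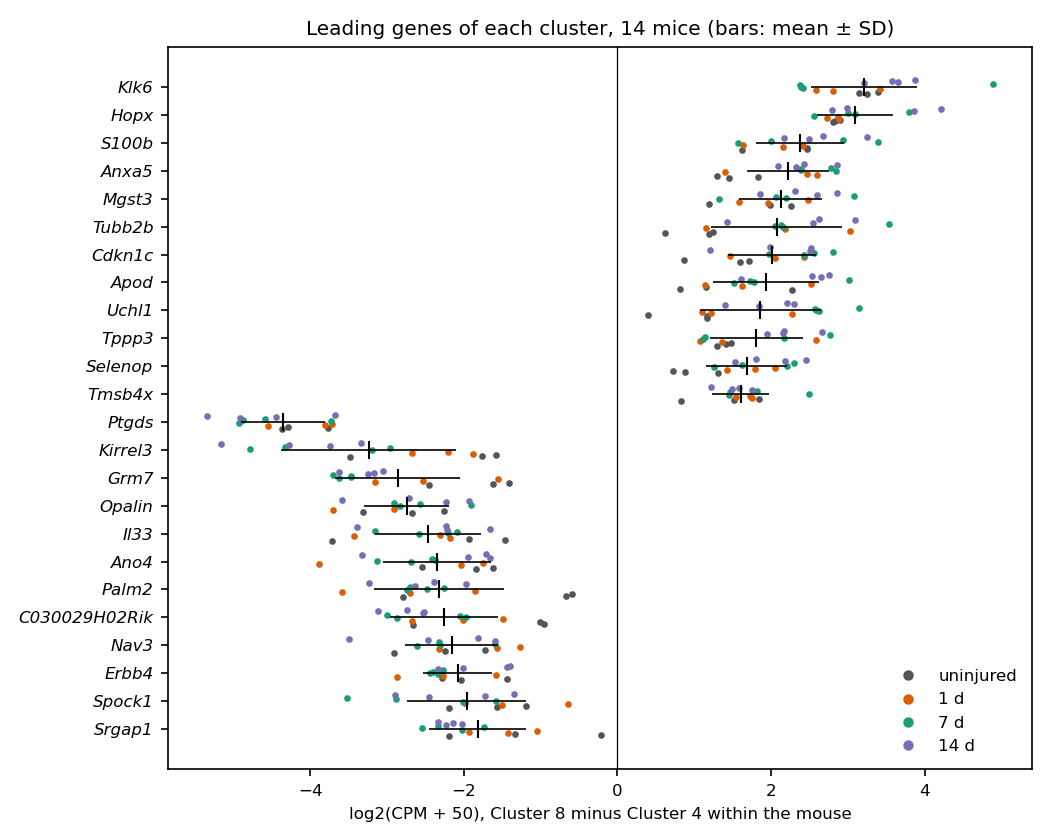
Difference of log2(CPM + 50) between Cluster 8 and Cluster 4 (horizontal axis) for the 12 leading genes of each cluster, with 1 point per mouse coloured by time point, a tick at the mean and a bar of ± 1 SD over 14 mice. Points of every mouse lie on the same side of 0 for each gene, which the rule for counting required, and Ptgds lies farthest out.

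Some genes of both sets were high in other cell types as well. Of the 46 genes higher in Cluster 8, 36 had their highest level of all 17 clusters in Cluster 8. Of the 107 genes higher in Cluster 4, 43 had it in Cluster 4 and 18 in the precursors of Cluster 11. The same was seen in 519 (Cluster 8), 342 (Cluster 4) and 221 (Cluster 11) of the 4096 genes described. Opalin and Il33 peaked in Cluster 4, with 34.3 and 45.8 CPM in precursors. Nav3 peaked in precursors, at 1635 CPM. Precursors lay nearer to Cluster 4 than to Cluster 8 in 39 of the 46 and in 57 of the 107 genes, against 2705 of the 4096. The rule for counting shapes these numbers. It favours Cluster 8 over Cluster 4 as the peak of the 46 genes, and the reverse for the 107. Any cluster low in the 46 genes also lies nearer to Cluster 4 by that rule. The 4096 genes were not chosen in this way and are no like baseline, so no kinship of precursors follows.

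Single cells of both clusters carried leading genes of either set, in unequal shares. These genes were chosen for their difference between the clusters, so the shares are a description. After cells were thinned to 500 UMIs (median depths of 1008 UMIs in Cluster 8, 1106 in Cluster 4 and 879 in endothelial cells, Cluster 1), which kept 791 of 885 cells of Cluster 8 and 1501 of 1739 cells of Cluster 4 (3108 of 4155 endothelial cells), Klk6 was found in 39.4% of the cells of Cluster 8 and 5.13% of Cluster 4. Endothelial cells were set beside them for comparison, with 0.611% for Klk6 and 5.21% for Ptgds. Whether free RNA, doublets or expression of their own gave these shares was not tested. Ptgds was found in 44.3% of Cluster 4, 19.1% of Cluster 8 and 10.0% of precursors. In single mice its share ran from 3.77% to 41.5% in Cluster 8 (mean 16.9%) and from 0% to 20.8% in endothelial cells (mean 3.99%), so that the ranges overlapped across mice. Opalin reached 13.4% in Cluster 4, 3.54% in Cluster 8 and 0.547% in endothelial cells. These shares pool the cells of 14 mice. In single mice the share of Klk6 ran from 11.3% to 75.7% in Cluster 8 and from 0% to 15% in Cluster 4. That of Opalin ran from 0% to 11.1% in Cluster 8 and from 5.67% to 23.1% in Cluster 4, so both genes overlapped across mice. Unthinned, the shares were 57.1% and 12.8% for Klk6, 28.2% and 60.8% for Ptgds, and 6.89% and 28.6% for Opalin, in Clusters 8 and 4, with 1.23%, 9.39% and 0.939% in endothelial cells. A UMI of Klk6, Hopx, S100b, Anxa5 or Mgst3, with none of Ptgds, Opalin, Il33, Grm3 or Jph4, marked 65.0% of the thinned cells of Cluster 8 and 16.9% of Cluster 4. The reverse pattern marked 6.70% and 44.9%. Cells with UMIs of both groups made up 19.6% of Cluster 8 and 14.8% of Cluster 4. Endothelial cells showed these 3 patterns in 22.6%, 4.18% and 3.22%, and S100b alone was found in 17.8% of them.

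The length of the gene on the chromosome separated the sets. The gene body spanned a median of 11222 bases for the 46 genes higher in Cluster 8 and 237235 bases for those of the 107 higher in Cluster 4 with an annotated span (105 genes), against 44589.5 bases for all 4072 described genes with a span. Across these genes longer genes had lower differences (Spearman's rho -0.557 over gene values averaged across mice; genes are not independent replicates). The relation was -0.381 for exon number and -0.462 for transcript length, and -0.560 and -0.558 for span in genes below and above the median level. Genes of up to 10 kb had a median difference of 0.29, and 20 of 749 were counted for Cluster 8 and 4 for Cluster 4. Genes over 300 kb had a median of -0.57, and 44 of 310 were counted for Cluster 4 and 0 for Cluster 8. Genes over 100 kb took 22.3% ± 4.59 of the UMIs in Cluster 8 and 29.8% ± 4.47 in Cluster 4, with Cluster 4 higher in 14 of 14 mice by 3.31 to 12.6 percentage points.

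The span relation was weaker in one series of animal numbers than in the other. In single mice, rho ran from -0.569 to -0.396 in the 9 mice numbered 10000 and above and from -0.206 to -0.127 in the 5 mice below 10000. Averaged within the series, rho was -0.649 and -0.201. Over the same series, 58 and 90 genes were counted for Cluster 8 and 164 and 114 for Cluster 4. In that order of series, leading genes had differences of 3.50 and 2.69 for Klk6 and 3.26 and 2.80 for Hopx. For Ptgds they were -4.27 and -4.51, and for Opalin -2.64 and -2.93. These genes were chosen for a large mean and the same sign in every mouse compared. Their sign in each series therefore followed from the rule, and only the sizes are a description. A like relation appeared between other pairs of clusters that share a cell type name, with rho 0.680 for astrocyte Clusters 7 minus 5 and 0.521 for microglial Clusters 6 minus 10. Depth per cell also differed in direction between the series. Whether both series were counted on the same reference, and with introns treated alike, is not known and also bears on Gm10800 below. The source of the relation was not tested, and it bears on every comparison of long and short genes below. Against it stood 8 counted genes of up to 30 kb that were higher in Cluster 4, Ptgds, Opalin, Kcna1, Lgi3, Mcam, Jph4, Slc38a2 and Ccp110, and 1 gene over 100 kb that was higher in Cluster 8, Aven.

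**Figure D2:**
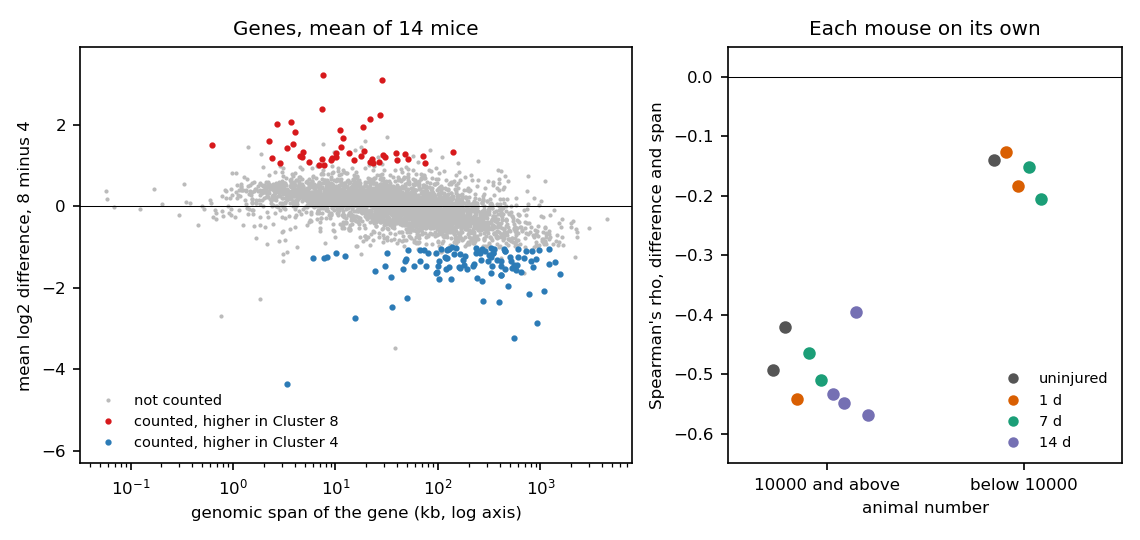
Left, mean difference between Cluster 8 and Cluster 4 (log2, vertical axis) against the genomic span of each gene (kb, log axis), with the counted genes in colour. Right, Spearman's rho between difference and span in each of the 14 mice by series of animal numbers, where the 5 mice below 10000 lie between -0.206 and -0.127.

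Myelin sheath genes had a median difference near that of all genes, but members were counted for both clusters. Of 18 myelin sheath genes, 1 was counted for Cluster 8 and 3 for Cluster 4, and their median difference was 0.04. Over all described genes, for this and the lists below, 1.12% were counted for Cluster 8 and 2.61% for Cluster 4, and the median was 0.01. Opalin, the tetraspanin Cd9 (-1.73 ± 0.45) and Tspan2, another tetraspanin (-1.35 ± 0.52), were higher in Cluster 4, and Ermn, a cytoskeletal protein of the outer myelin loop (1.00 ± 0.38), was higher in Cluster 8. The summed CPM of the list was 62074 ± 7515 in Cluster 8 and 46053 ± 8103 in Cluster 4, higher in Cluster 8 in 14 of 14 mice. None of the 14 described genes of myelin lipid synthesis was counted (median 0.25). Ugt8a, which makes galactosylceramide, and Gal3st1, which sulfates it, differed by 0.53 ± 0.30 and 0.69 ± 0.52, and the fatty acid elongases Elovl7 and Elovl6 by 0.48 ± 0.43 and -0.57 ± 0.42.

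Cholesterol synthesis leaned to Cluster 8. Of 23 listed genes 18 were described, 1 was counted for Cluster 8 and none for Cluster 4, with a median of 0.49. Hmgcs1, an early enzyme of the pathway, ran from 507 to 1505 CPM in Cluster 8 (median 745) and from 137 to 675 CPM in Cluster 4 (median 268), a difference of 1.23 ± 0.53. Its ranges overlapped. The later enzymes Sc5d, Ebp and Sqle differed by 0.81 ± 0.48, 0.64 ± 0.34 and 0.59 ± 0.58. The list summed to 3239 ± 913 against 1971 ± 659 CPM, higher in Cluster 8 in 14 of 14 mice. These genes are short (median span 17102.5 bases), and genes of 10 to 30 kb had a median difference of 0.18.

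Transcription factors of oligodendrocytes went in both directions. None of 12 described transcription factors was counted, and their median was -0.35. Their summed CPM was 4325 ± 1704 in Cluster 8 and 5919.8 ± 1639.5 in Cluster 4, higher in Cluster 8 in 0 of 14 mice, and St18 and Zeb2 made up the largest part of it. Sox10, Sox8 and Myrf were higher in Cluster 8 in 8, 8 and 7 of 14 mice, and Nkx6-2 (0.29) and Carhsp1 (0.37) in 11 and 12. Olig1 and Olig2, factors of the whole lineage, have short genes and differed by -0.92 ± 0.66 and -0.83 ± 0.51. Zfp536, a zinc finger repressor, and Tcf7l2, a factor of newly formed oligodendrocytes, differed by -0.98 ± 0.48 and -0.93 ± 1.12. Among 6 described genes of newly formed oligodendrocytes none was counted (median -0.37). Enpp6, an enzyme of that stage, was higher in Cluster 8 in 11 of 14 mice (1.19 ± 0.89), as was Nkx2-2, a factor of early differentiation, in 13 (0.61 ± 0.51). Itpr2, a calcium channel of the same stage, differed by -0.63 ± 0.66.

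The published types of mature oligodendrocytes matched the clusters in part. Of 7 genes of the Klk6 type, 5 were counted for Cluster 8 and 0 for Cluster 4, with a median of 2.23. Of 10 genes of the Ptgds type, 4 were counted for Cluster 4 (Ptgds, Il33, Grm3 and Jph4) and 2 for Cluster 8 (Apod and Trf), with a median of -0.87. Grm3, another metabotropic glutamate receptor, differed by -1.76 ± 0.76, and Trf, the iron carrier transferrin, by 1.08 ± 0.49. Both lists were drawn up with earlier results of these data known, so their directions are no independent support. The next lists concern iron and ion handling. Of 4 described genes of iron handling, Fth1 and Trf were counted for Cluster 8 (median 0.79), and Fth1, the ferritin heavy chain, averaged 34111 ± 20622 against 13416 ± 4246 CPM. The ferritin light chain Ftl1 and the transferrin receptor Tfrc differed by 0.50 ± 0.39 and 0.31 ± 0.28.

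Channels split between the clusters, whereas counted adhesion genes were all higher in Cluster 4. Of 6 described gap junction and potassium genes (median 0.08), Gjb1, a connexin of myelinating glia (1.19 ± 0.50), was counted for Cluster 8, and Kcna1, a potassium channel with a short gene (-1.27 ± 0.70), for Cluster 4. Gjc3, another glial connexin, differed by -0.61 ± 0.39. Of 25 described adhesion and guidance genes, 5 were counted for Cluster 4 and 0 for Cluster 8 (median -0.71). Of all described genes, 14.2% of those over 300 kb and 4.41% of those from 100 to 300 kb were counted for Cluster 4, and whether this list exceeds genes of its own spans was not tested. Sema6a, a semaphorin, Nfasc, which anchors the paranodal loops, and Nlgn1, a neuroligin, differed by -1.77 ± 0.41, -1.32 ± 0.69 and -1.30 ± 0.48. Lsamp, a cell surface protein, was lower in Cluster 8 in all but 1 mouse (-1.26 ± 0.71). Sema5a (0.73), Sema4d (0.50), Rtn4 (0.42) and Cadm4 (0.32) lay on the side of Cluster 8, and all other described members on that of Cluster 4. The median span of this list was 327465 bases, and genes over 300 kb as a whole had a median of -0.57.

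Medians of the nuclear lists of energy metabolism lay on the side of Cluster 8, near that of short genes, and the median of mitochondrial genes did not. Of 12 described genes of glycolysis and lactate export, 2 were counted for Cluster 8 and 0 for Cluster 4 (median 0.33), and their sum of 2788 ± 529.6 against 1557 ± 558 CPM was higher in Cluster 8 in 13 of 14 mice. Of all described genes 1.12% were counted for Cluster 8, and of those up to 10 kb and from 10 to 30 kb 2.67% and 2.01%. The counted enzymes were Aldoc, a brain aldolase (1.33 ± 0.78), and Gapdh (1.20 ± 0.54), and the lactate dehydrogenase Ldhb (1.46 ± 0.86) and the aldolase Aldoa (0.65 ± 0.36) were higher in 13 mice each. None of 73 nuclear subunits of oxidative phosphorylation was counted (median 0.38), with Ndufa4, Cox5b, Cox4i1 and Ndufa11 between 0.72 and 0.78. None of 75 cytosolic ribosomal proteins was counted either (median 0.37), with Rpl30, Rpl14, Rps26 and Rps3 between 0.56 and 0.61. These genes are short, and all genes of up to 10 kb had a median of 0.29. The 17 described mitochondrial genes had a median of -0.08 and none was counted, with mt-Co2, mt-Nd2, mt-Nd4l and mt-Nd1 between -0.31 and -0.22. Among 8 nuclear long non-coding RNAs, Meg3 was counted for Cluster 4 (-1.47 ± 0.72; median -0.56), and Gm26917, Neat1 and Snhg14 differed by -1.13 ± 0.92, -0.76 ± 0.64 and -0.58 ± 0.54.

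Genes known to rise in oligodendrocytes after damage did not all lie on one side. Of 9 described members of this list, 0 were counted for Cluster 8 and 1 for Cluster 4 (Il33), and the median was 0.57. Serpina3n, a secreted inhibitor of proteases, ran from 0 to 2273 CPM in Cluster 8 (median 584) and from 0 to 631 CPM in Cluster 4 (median 91.2). The clusters overlapped, and Cluster 8 was higher in 12 of 14 mice (1.52 ± 0.77). Cdkn1a, a cell cycle inhibitor induced by stress, and the complement component C4b differed by 1.33 ± 0.89 and 0.71 ± 0.53. The tetraspanin Cd63 (-0.47) and the signalling factor Stat3 (-0.12) lay on the side of Cluster 4, as Il33 did. Stress lists held no counted gene. The median was 0.12 for 9 heat shock genes, in which Dnaja1, Hspe1, Hsp90ab1 and Hspa8 differed by 0.25 to 0.40. The immediate early genes Fos, Jund and Jun differed by 0.22 ± 0.84, 0.07 ± 0.53 and -0.07 ± 0.67 (median 0.07 for 3 genes). For Ddit4, the only described gene of the integrated stress response, the difference was -0.14 ± 0.58. The 6 described genes of the glucocorticoid response had a median of -0.45, with Zbtb16 (-0.97 ± 0.46), Sgk1 (-0.70 ± 0.44) and Tsc22d3 (-0.61 ± 0.52) on the side of Cluster 4 and Cdkn1a on the other.

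Markers of other cell types were low in both clusters, and some of them differed. The 7 endothelial markers summed to 75.8 ± 87.5 CPM in Cluster 8 and 346 ± 275 CPM in Cluster 4, higher in Cluster 8 in 1 of 14 mice. The most abundant, Flt1, averaged 19.8 ± 18.3 and 126 ± 102 CPM, and Flt1 and Slco1a4 were both counted for Cluster 4. The 6 Schwann cell markers summed to 637 ± 257 and 396 ± 198 CPM. The most abundant was Pmp22, a myelin gene of peripheral nerve counted for Cluster 8 (445 ± 166 and 166 ± 79.9 CPM). Astrocyte markers summed to 1513 ± 1074 and 1115 ± 798 CPM, and 1 of 10, Aldoc, was counted for Cluster 8 and made up most of the gap (465 and 189 CPM). Slc1a2 averaged 441 and 432 CPM and was higher in Cluster 8 in 4 of 14 mice, as was Aldh1l1, with Fgfr3 in 3 and Slc7a10 in 2. Neuronal markers summed to 930.2 ± 1168 and 704 ± 721 CPM, with Kif5a at 357 and 169 CPM, but within mice the sum was higher in Cluster 8 in only 5 of 14. Syt1 was higher in Cluster 8 in 0 of 14 mice, Rbfox3 in 1 and Snap25 in 3. Microglial markers summed to 285 ± 264 and 267 ± 181 CPM.

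The last marker lists also had low mean sums. In Clusters 8 and 4, macrophage and immune markers summed to 30.0 and 37.4 CPM (most abundant S100a9, 11.5 and 13.1), and pericyte markers to 35.7 and 66.1 CPM (Rgs5, 13.5 and 24.4). Fibroblast markers summed to 71.2 and 49.7 CPM (Col1a2, 46.7 and 15.3, whereas Col1a1, Col3a1 and Lum averaged more in Cluster 4), and ependymal markers to 7.56 and 20.4 CPM (Foxj1, 5.02 and 14.0). Red blood cell genes summed to 114 and 235 CPM (Hbb-bs, 66.3 and 132), where 1 mouse with 1797 CPM raised the mean of Cluster 4 and the sum was higher in Cluster 8 in 8 of 14 mice. Among precursor markers Lhfpl3 was the most abundant, at 71.3 and 101 CPM, and Pdgfra, which defines precursors, averaged 4.91 and 4.93 CPM. No marker of these lists was at 0 in both clusters. Whether RNA of other cells contributes to any difference was not tested.

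The pattern was present at every time point. Over the 46 genes higher in Cluster 8, median differences from the uninjured group to 14 d were 1.14, 1.30, 1.33 and 1.52. Over the 107 genes higher in Cluster 4 they were -1.27, -1.22, -1.40 and -1.34, and over all 4096 genes -0.20, -0.02, 0.05 and 0.10. Klk6 differed by 3.26, 2.94, 3.02 and 3.58 in that order. For Ptgds the values were -4.14, -4.02, -4.53 and -4.59. These leading genes therefore separated the clusters without an injury as well. Since the genes were counted over all 14 mice, the sign at each time point followed from the rule.

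Other genes had unequal differences across time. In the same order, Serpina3n differed by 0.27, 1.62, 2.00 and 1.90, and Cdkn1a by 0.30, 0.86, 1.79 and 1.99. The summed cholesterol genes differed by 0.29, 0.70, 0.76 and 1.04, and the summed glycolytic genes by 0.23, 0.76, 1.16 and 1.14. These differences of the sums were smallest in the 3 uninjured mice, of which 2 had the high share of Gm42418. In those 2 mice that gene took 14.6% and 17.2% of the UMIs of Cluster 8 and 16.8% and 19.1% of those of Cluster 4. The median difference of all 4096 genes also rose, from -0.20 without an injury to 0.10 at 14 d. How far this shift bears on the sums was not tested. Kirrel3 differed by -2.27 and -2.25 in the early groups and by -3.82 and -4.13 in the later ones. Time and series of animal numbers were mixed, since 1 of 3 uninjured mice, 2 of 3 at 1 d, 2 of 4 at 7 d and 0 of 4 at 14 d were numbered below 10000. Among mice numbered 10000 and above, Kirrel3 differed by -1.76 and -1.58 without an injury, -2.20 at 1 d, -4.78 and -4.32 at 7 d and -5.16 to -3.33 at 14 d. Below 10000 its difference was -3.48 without an injury, -2.67 and -1.88 at 1 d, and -3.19 and -2.97 at 7 d. The myelin sheath sum differed by 0.59, 0.34, 0.38 and 0.46. None of these genes passed the test of a change with time given next. Cluster 8 made up 40.8% ± 13.3 of the oligodendrocytes in uninjured mice (n = 3), 35.9% ± 4.32 at 1 d (n = 3), 38.3% ± 3.83 at 7 d (n = 4) and 25.3% ± 4.32 at 14 d (n = 4), a share that was not tested. The uninjured mean rested on the 2 mice with the high share of Gm42418 (48.8% and 48.2%), and the third uninjured mouse, at 25.5%, lay near the mean at 14 d.

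**Figure D3:**
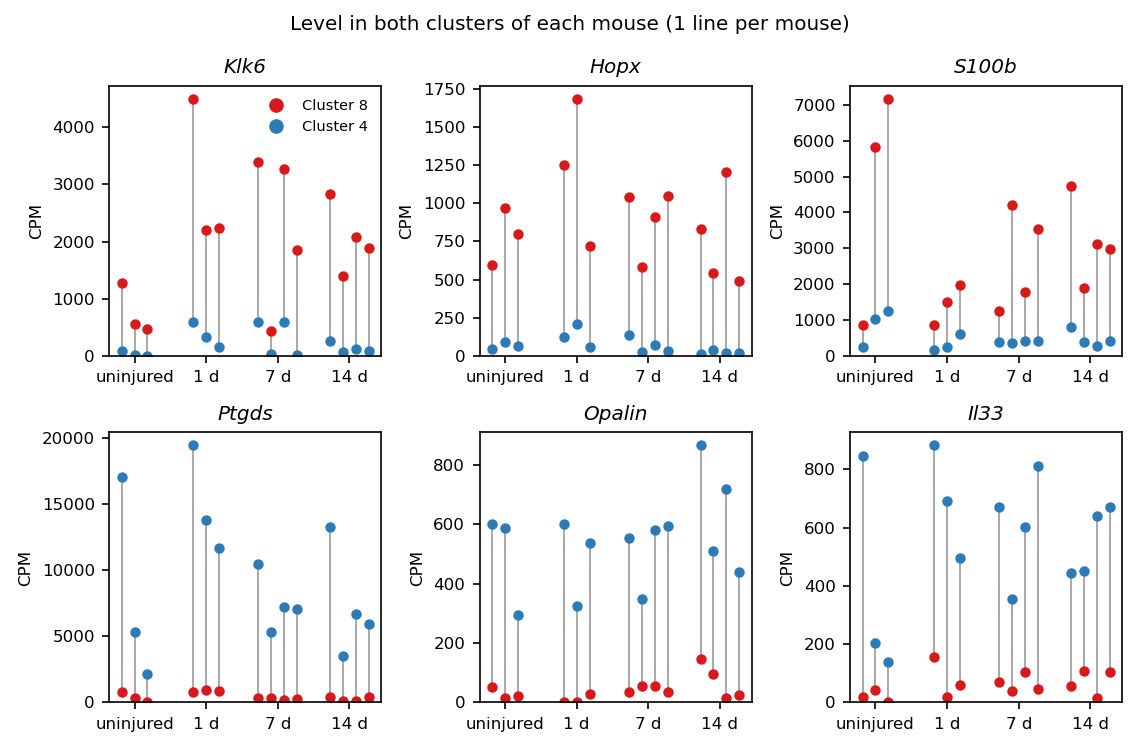
CPM of Klk6, Hopx and S100b (upper panels) and Ptgds, Opalin and Il33 (lower panels) in Cluster 8 and Cluster 4 by time point, with a line joining the clusters of each of the 14 mice. In every mouse the upper genes are higher in Cluster 8 and the lower genes in Cluster 4.

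Whether the within-mouse difference changes after injury was tested, since the time point as such was not used to form the clusters. The paper states, however, that batch and sample effects were corrected with Harmony before clustering. The sample fixes the time point and the genotype, so the clusters are not fully independent of them. How far this bears on the tests of time and genotype was not tested. Few genes were called, and no leading gene was among them. At 14 d against uninjured mice, edgeR called 2 of 5217 genes (0.0383%), C1qa and Gm10800, both with a lower difference at 14 d. For the mean of the 3 injured time points it called 1 gene, C1qa (0.0192%). At 1 d and at 7 d it called 0 genes (0% each). Before adjustment, p lay under 0.05 for 192 genes at 1 d, 209 at 7 d, 223 at 14 d and 200 for the injury mean. In limma these numbers were 588, 623, 590 and 758, and in edgeR without WT uninjured replicate 1 they were 536, 567, 606 and 629 of 5614 genes, so that the small number of calls does not show that the difference stayed the same. In the order 1 d, 7 d, 14 d and injury mean, DESeq2 called 0, 0, 1 and 1 genes, and limma called 0, 3, 0 and 0. With the replicate number, which equals the batch, as a block, edgeR called 2 genes at 7 d, 5 at 14 d and 2 for the injury mean. Without the 4 libraries that share barcodes it called 1, 7, 8 and 7 genes, with a single mouse left at 1 d.

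For C1qa, a complement gene of microglia, both calls ended without 1 mouse, where 1 cell held most of its UMIs in Cluster 8. Its interaction was -6.76 at 14 d (edgeR, adjusted p = 0.000763) and -5.73 for the injury mean (adjusted p = 0.0270). The level was higher in Cluster 8 in 2 of 3 uninjured mice and in 0 of 4 mice at 14 d. In WT uninjured replicate 1, Cluster 8 held 79 UMIs of C1qa, 69 of them in 1 cell of 10789 UMIs that also carried 58 UMIs of C1qb, 19 of Cx3cr1 and 10 of Klk6. Whether it held RNA of 2 cells was not tested. Without that mouse the adjusted p was 0.491 at 14 d and 0.638 for the injury mean, and in limma with all mice it was 0.286 and 0.160. DESeq2 kept both calls (4.33e-05 and 0.00645). With a term for the animal number series, neither call passed (0.0970 and 0.433), while the values themselves stayed near at -6.67 and -5.65. In the other 13 mice Cluster 8 held at most 31 UMIs of C1qa, and microglia (Cluster 6) averaged 6434 CPM. The call for the injury mean also ended without cKO uninjured replicate 2 (adjusted p = 0.0592), cKO 1 d replicate 2 (1, since no C1qa UMI then remained at 1 d), cKO 7 d replicate 2 (0.0534), WT 14 d replicate 1 (0.0835), WT 14 d replicate 2 (0.283) and cKO 14 d replicate 2 (0.0569).

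Gm10800, a predicted gene model, was higher in Cluster 4 than in Cluster 8. Of all 17 clusters, its mean was highest in neurons (Cluster 3), with 2698 CPM in 15 mice, against 1235 CPM in 15 mice for Cluster 4. Its level in Cluster 4 ran from 0 to 5843 CPM (median 543) and in Cluster 8 from 0 to 157 CPM (median 12.6). The 4 libraries that share barcodes held 0 UMIs of it in both clusters, WT uninjured replicate 1 held 4, and the 3 highest levels were at 14 d. The interaction at 14 d was -4.31 (edgeR, adjusted p = 0.0407), with Cluster 4 higher in 3 of 3 uninjured mice and in 4 of 4 mice at 14 d, and the call ended without WT uninjured replicate 2 (1.00), WT 7 d replicate 1 (0.0593), cKO 7 d replicate 2 (0.0510) or WT 14 d replicate 2 (1). It was also lost with DESeq2 (0.998), with limma (0.297) and without TMM (0.131). It was kept with a term for the animal number series (-4.43, adjusted p = 0.00443), without the 4 libraries (0.000808), with the replicate block (0.00665) and with thinned cells (0.00195). The gene model Gm26870, named after its values were seen, behaved alike, with 11780 ± 12590 CPM in Cluster 4 and 257 ± 229 CPM in Cluster 8 and a mean difference of -3.48. It was higher in Cluster 8 in 0 of 14 mice, but it was not counted, because some mice showed no difference.

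No gene passed the test of a different gap between the clusters in knockout mice. For cKO against WT over all time points, edgeR called 0 of 5217 genes (0%), while unadjusted p values lay under 0.05 for 130 genes, and DESeq2 and limma called 0 each. The fit without the 4 libraries that share barcodes called 4 genes. Ryk itself, a receptor that astrocytes and other cells express, ran from 0 to 111 CPM in Cluster 8 (median 58.1) and from 12.7 to 78.8 CPM in Cluster 4 (median 46.5), with 150 and 223 UMIs in all. The ranges overlapped and the difference was 0.10 ± 0.40. A genotype effect at a single time point was not tested, and uninjured cKO and WT at 1 d each had 1 mouse in the comparison.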

How the data were processed

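The authors aligned the reads with Cell Ranger on mm10, processed them with R 4.1.2 and Seurat, and deposited raw UMI counts of 55487 genes and a cell table with clusters, batch and the percent of mitochondrial UMIs, whose highest value was 25.0% and whose lowest gene number was 201. The table's counts equalled the matrix in all 18203 cells. Conditions followed the sample titles. UMIs were summed per mouse and cluster with 10 or more cells. No doublet caller was run and free RNA was not removed. Interactions were tested on 28 sums of 14 mice (9 residual degrees of freedom) with edgeR 4.0.16 in R 4.3.3 (TMM, filterByExpr, quasi-likelihood, 1 intercept per mouse, cluster by time and cluster by genotype), Benjamini-Hochberg adjusted over 5217 genes at a threshold of 0.05. The alternatives used DESeq2 1.42.0 and limma 3.58.1. Python 3.11.15, numpy 2.4.6, pandas 2.3.3, scipy 1.17.1 and matplotlib 3.10.9 did the rest. Positions came from GENCODE M21 (mm10), matched by symbol for 54396 genes, and may differ from the annotation counted on. Genes that overlap a neighbour, as S100b and Hopx do, may share reads with it.

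Replicate numbers equal the batch of the cell table in 16 mice. In the check of this pairing, deviations of same-numbered mice correlated with a median of 0.148 over 15 pairs of conditions (-0.029 to 0.318, 11 over 0.1). The 12 largest and 12 smallest differences among counted genes were named, with up to 5 genes per direction and interaction, up to 4 per list of 20 gene lists, the most abundant gene of 11 marker lists, Ryk and S100b; a few genes that this rule names were left out of the text. TMM moved the median difference by -0.04. The cells compared, the lists and the tests were chosen with earlier results of these data known.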

Additional observations from a re-analysis of the deposited data

Results flagged for a closer look

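Beside the values of the other mice of its time point, cKO 7 d replicate 2 stood far out in 3 genes. Its difference between Cluster 8 and Cluster 4 was 4.89 for Klk6 (the 3 other mice 2.37 to 2.41), 3.54 for Tubb2b (2.05 to 2.16) and 3.15 for Uchl1 (2.57 to 2.63). These are 3 of 50 groups of 4 mice looked at, and chance alone sets about 1 in 20 such groups apart. The difference between the clusters also changed with time in a test of the interaction for C1qa, by -6.76 at 14 d and by -5.73 for the mean of the injured time points, and for Gm10800, by -4.31 at 14 d, each against uninjured mice. Both C1qa calls ended without WT uninjured replicate 1, where 1 cell held 69 of the 79 UMIs in Cluster 8. The injury-mean call also ended without several other single mice. Gm10800 had 0 UMIs in 4 libraries.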

How the results depend on the processing

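The cluster differences kept their sign in every alternative for the 24 leading genes, and 586 of 624 values moved by less than 1 SD. The 38 others came from pseudocounts of 10 CPM (12) and 200 CPM (18), thinning (4), means of single cells (3) and animal numbers below 10000 (1). Because the rule for counting required the same sign in all 14 mice, the sign was fixed in advance in alternatives that only left out mice. Leaving out 1 of 14 mice can also move a mean only little, so these values are weak support. The 46 genes of Cluster 8 and 107 of Cluster 4 became 72 and 187 with 10 CPM and 14 and 22 with 200 CPM. Cells thinned to 1000 UMIs, which left 13 mice and 4292 described genes, gave 29 and 53. Only 19 and 38 of these were among the 46 and 107. Means of single cells gave 49 and 109, with 37 and 69 of the same genes, while animal numbers below 10000 gave 90 for Cluster 8 and those of 10000 and above 164 for Cluster 4. Leaving out each mouse gave 44 to 58 and 102 to 115. The rank correlation with gene span was -0.140, -0.127, -0.184, -0.152 and -0.206 in the single mice WT uninjured, WT 1 d, cKO 1 d, WT 7 d and cKO 7 d, all replicate 1. For the interactions, the counts were 0 at 1 d, 0 at 7 d, 2 at 14 d, 1 for the injury mean and 0 for cKO, and leaving out each mouse gave 0 to 0, 0 to 1, 1 to 4, 0 to 8 and 0 to 1. The 8 calls came without WT uninjured replicate 1. DESeq2 gave 1 at 14 d. limma gave 3 at 7 d, 0 at 14 d and 0 for the injury mean. Without TMM 1 remained at 14 d. Without a filter on low counts there were 5 at 7 d, 8 at 14 d, 4 for the injury mean and 1 for cKO. With the replicate block there were 2 at 7 d, 5 at 14 d and 2 for the injury mean, and the block changed no other count. A term for the animal number series gave 6 at 14 d (1 of them among the 2) and 0 for the injury mean, and conditions taken from cell names and a limit of 30 cells also gave 0 for the injury mean. Without the 4 libraries that share barcodes, an alternative chosen after seeing the data like the series below 10000 and the removal of shared barcodes, there were 1 at 1 d, 7 at 7 d, 8 at 14 d, 7 for the injury mean and 4 for cKO, with 1 mouse at 1 d assumed to vary like the other groups. The fit without these 4 libraries tested 9223 genes, against 5217 in the main fit, so the counts of the 2 fits are not directly comparable. The causes of these changes were not tested. Genes under 50 CPM, which at the depth of the smallest sums is about 2 UMIs, were not described.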

Other observations

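The mouse left out for its 7 cells of Cluster 8, cKO uninjured replicate 1, had 5677 UMIs in Cluster 8 and 80256 UMIs in 29 cells of Cluster 4. S100b stood at 5284 CPM (30 UMIs) in its Cluster 8 and 473 CPM (38 UMIs) in its Cluster 4, and Apod at 1585 and 723 CPM. Ptgds stood at 705 CPM (4 UMIs) and 4785 CPM (384 UMIs), and Opalin at 0 and 449 CPM. Klk6 rested on 1 and 6 UMIs.

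Mice were also compared with each other over the differences of the described genes. The correlation between 2 mice ran from 0.165 to 0.824 over 91 pairs, with a median of 0.501, and all mice share the cluster definition and part of their depth.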
